A study of Mus musculus with 4 samples.

Results

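The genes described here store, carry, oxidise and break down retinol (vitamin A) or bind the acid made from it. The 9 members were named by symbol and looked up in the gene table of each library, and all 9 were found among 55488 genes, each as 1 entry. They are Lrat and Pnpla2 for storage, Rbp4 and Ttr for transport, Rdh10 and Aldh1a1 for oxidation, Cyp26a1 and Cyp26b1 for breakdown and Rarb as a receptor. Single cells of mouse livers were sequenced from 4 genotypes, with 1 library of 1 mouse for each genotype. WT mice were wildtype, YAPKO and TAZKO mice lacked Yap1 or Wwtr1 (the gene of TAZ), and DKO mice lacked both. The deletions used loxP-flanked Yap and Taz alleles and Cre recombinase under the albumin promoter, so they were directed at hepatocytes (HCs) and biliary epithelial cells (BECs), while the other liver cells kept their genes. Per the labels no animal was treated, and the age of the sequenced animals is not stated there. HCs and non-parenchymal cells were isolated separately and mixed before loading. The libraries hold 66259687 UMIs (counted mRNA molecules) for WT, 85989454 for YAPKO, 49022089 for TAZKO and 77411746 for DKO. After barcodes with under 500 or over 6000 genes, or with over 10% mitochondrial UMIs, were left out, 7155 cells of WT, 6275 of YAPKO, 8638 of TAZKO and 8294 of DKO remained.

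As background, the liver takes up retinol from the diet and keeps most of the body's reserve as retinyl esters in lipid droplets of hepatic stellate cells (HSCs). LRAT forms these esters, lipases such as PNPLA2 act on stored lipid, and HCs secrete retinol bound to RBP4 and transthyretin. Inside cells, retinol is oxidised to retinal and then to retinoic acid, which acts through nuclear receptors and is cleared by enzymes of the CYP26 family.

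Cyp26b1 in endothelial cells (ECs) set TAZKO and DKO apart from WT and YAPKO. Its level was 531 counts per 1000000 UMIs (CPM) in WT and 640 in YAPKO, against 164 in TAZKO and 153 in DKO. In HCs, Cyp26a1 and Rarb were scarce in WT. Cyp26a1 passed 2-fold in the sum of HCs of each knock-out, and Rarb in YAPKO and DKO. Aldh1a1 in HCs was highest in TAZKO. Lrat in HSCs lay within 2-fold of WT in each knock-out, except in TAZKO among the few HSCs with under 0.3% EC marker UMIs, which also held more Ttr (3100 against 795 CPM), and its low level in ECs fell in DKO.

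The levels are summed UMIs of a cell type in a library, per 1000000 UMIs of the same cells. A gene counts as tested with at least 20 UMIs in WT and the knock-out together, and as called when its CPM differed at least 2-fold from WT. No genotype had a second library, so no difference could be tested against the variation between mice. The 95% intervals are exact and cover counting error only. Clustering gave 21 clusters, named from marker lists that hold none of the members. Cluster 11 held the HSCs, with 262 cells in WT, 129 in YAPKO, 148 in TAZKO and 121 in DKO, and all 14 HSC markers were at least 2-fold above the other cells there. Clusters 0 and 16 held the ECs, with 2138, 1421, 1886 and 1345 cells in the same order. HCs made up clusters 1, 3, 14 and 17, with 2194, 1215, 3095 and 3045 cells.

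The HC clusters differed in depth and in the libraries they came from. Cluster 1 had a median of 2012.5 UMIs per cell in WT, 3653 in YAPKO, 1352 in TAZKO and 4884 in DKO. Cluster 3 had medians of 40121, 25826, 3090 and 21512 UMIs. Of the 272 cells of cluster 14, 260 came from TAZKO, and of the 181 cells of cluster 17, 147 came from DKO. No HC marker was among the 10 leading genes of cluster 1, where the BEC marker Krt18 stood, although 8 of the 10 HC markers were at least 2-fold above the other cells. Most ratios of members in HCs are therefore given for clusters 1 and 3 separately, with the sum of all HC clusters beside them. Levels of Lrat and Pnpla2, shares of cells, groups along the lobule and single genes of the retinoid list are given for the sum alone, which mixes these clusters. Of the kept barcodes, 94 occurred in more than 1 library.

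The deleted genes were read first, as a check of the labels. In HCs, Yap1 was at 21.3 CPM in WT, 4.74 in YAPKO, 46.6 in TAZKO and 4.48 in DKO. Wwtr1 was at 5.11 CPM in WT, 13.2 in YAPKO, 2.71 in TAZKO and 2.37 in DKO. Yap1 was thus lower than WT in HCs of YAPKO and DKO, in clusters 1 and 3 as well as in the sum. Wwtr1 in TAZKO was lower in the sum of HCs and in cluster 14, at 0.923 CPM against 10.9 in the 10 cells of WT there. It did not differ from WT beyond counting error in cluster 1 (2.18 against 2.20 CPM) or cluster 3 (5.59 against 6.15 CPM). In DKO it was at 1.37 CPM in cluster 1, overlapping WT, and at 2.88 CPM in cluster 3, below WT. Each gene was higher than WT in the HCs of the other single knock-out. Where a 3′ tag lies outside the deleted exons, its count checks nothing. ECs and HSCs do not express albumin, and both genes were counted there in every library. EC levels of Wwtr1 were 155, 165, 155 and 176 CPM in WT, YAPKO, TAZKO and DKO, and Yap1 was at 40.0, 40.6, 60.5 and 42.4 CPM.

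Cyp26a1 and Rarb are known to be induced by retinoic acid through its receptors, which bind direct repeats in DNA. In the sum of HCs, Cyp26a1 passed 2-fold above WT in each knock-out and Rarb in YAPKO and DKO, so their promoters are shown. Cyp26a1 was too scarce in HC cluster 1 to be tested, and its ratio there in DKO lay below that of cluster 3, as given below. Rarb could be tested in cluster 1 in DKO alone, where it passed 2-fold, but not against the median of all genes (0.71). The RefSeq promoters of GRCm38.p6, from 250 bases before to 50 bases after the start, hold 7 of the 9 members (Ttr and Rdh10 have no entry). They were searched on both strands for a direct repeat of AGGTCA or AGTTCA or GGGTCA or GGTTCA with 5 bases between the copies, in any pairing of these 4 letter strings. Cyp26a1 and Rarb were the 2 members with such a repeat. Among all promoters, 32 of 32851 (0.0974%) hold one, and by gene it is 31 of 27025 (0.115%). The strings searched are half-sites of these receptors, so the share is no test of the members. Capitals mark the copies of the repeat. The Cyp26a1 stretch is chr19:37697771-37697797, plus strand, where the repeat reads on the opposite strand and starts 32 bases before the RefSeq start. The Rarb stretch is chr14:16575508-16575534, minus strand, where it reads as printed and starts 53 bases before the RefSeq start. This start lies inside the longer Rarb gene of GENCODE (chr14:16430839-16819156), and 2 exon entries of Rarb overlap the stretch. A match in letters is a description of the sequence, and binding was not measured. Its relation to the levels in HCs was not tested.
Cyp26a1: aaagaTGAACTttgggTGAACTaattt
Rarb: ggaagGGTTCAccgaaAGTTCActcgc

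Lrat encodes the enzyme that esterifies retinol for storage. In HSCs it stood at 527 CPM in WT, 386 in YAPKO, 530 in TAZKO and 388 in DKO, with intervals of 498 to 557, 356 to 417, 491 to 572 and 358 to 420. TAZKO and WT overlapped at the higher level, and DKO and YAPKO overlapped at the lower one. The HSC markers in the same cells summed to 17781 CPM in WT, 13337 in YAPKO, 19996 in TAZKO and 15660 in DKO. They were thus also lower in YAPKO and DKO, and their relation to the Lrat level was not tested. The log2 ratio to WT was −0.45 in YAPKO (−0.59 to −0.31), 0.01 in TAZKO (−0.13 to 0.15) and −0.44 in DKO (−0.58 to −0.30). None of these reached 2-fold. Among HSCs with under 0.3% EC marker UMIs, 21 cells in WT and 21 in TAZKO, the ratio in TAZKO was −1.19, past 2-fold. Those cells of TAZKO also held more Ttr (3100 against 795 CPM) and Rbp4 (636 against 328 CPM) than those of WT. Cells with at least 1 Lrat UMI made up 86.3% of HSCs in WT, 89.1% in YAPKO, 84.5% in TAZKO and 87.6% in DKO, against at most 0.458% of B cells, which do not store retinol. Median depth was 7816.5, 11897, 7778 and 12827 UMIs in those HSCs and 2949, 2877, 2840 and 2204 UMIs in B cells. With each cell thinned to 1000 UMIs, the HSC shares were 34.7%, 27.1%, 40.0% and 29.8%. Of all Lrat UMIs in kept cells, 62.3% lay in HSCs and 22.4% in ECs.

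In ECs, Lrat stood at 43.4 CPM in WT, 24.1 in YAPKO, 36.2 in TAZKO and 14.9 in DKO, with intervals of 39.6 to 47.5, 21.3 to 27.2, 32.1 to 40.8 and 12.4 to 17.8. WT and TAZKO overlapped, and YAPKO and DKO lay below them and apart from each other. DKO was 2.91-fold lower than WT (log2 −1.54, −1.84 to −1.25), and YAPKO was 1.80-fold lower (log2 −0.85). HSC markers were present in ECs too. All 14 had UMIs there, with sums of 659 CPM in WT, 559 in YAPKO, 581 in TAZKO and 517 in DKO, which is 3.71%, 4.19%, 2.91% and 3.30% of their level in HSCs, and Hgf was the most abundant. Lrat reached 6.59% of the HSC marker UMIs in ECs of WT, 4.32% in YAPKO, 6.23% in TAZKO and 2.88% in DKO. In HSCs the same ratio was 2.96%, 2.89%, 2.65% and 2.48%. Lrat UMIs in ECs therefore exceeded the proportion found in HSCs most in WT and TAZKO, and least in DKO. The part of HSC RNA in the EC level was not tested.

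HCs held few Lrat UMIs, at 0.947 CPM in WT, 0.527 in YAPKO, 1.18 in TAZKO and 0.820 in DKO, and all neighbours in that order overlapped. The order of the main types was the same in every library, with HSCs above ECs and ECs above HCs, each pair apart. Kupffer cells (KCs) lay between ECs and HCs at 7.70 to 11.4 CPM.

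Pnpla2 encodes the main lipase of triglyceride droplets, which also hydrolyses retinyl esters. HSCs held 46.8 CPM in WT, 49.8 in YAPKO, 36.4 in TAZKO and 46.2 in DKO, and all 4 intervals overlapped their neighbours. In ECs the levels were 45.6, 64.3, 36.1 and 51.6 CPM, so that YAPKO was highest and TAZKO lowest, both apart from WT and DKO. HCs held 33.8, 41.0, 34.4 and 46.1 CPM, with DKO and YAPKO above TAZKO and WT. No ratio of Pnpla2 to WT reached 2-fold in HSCs, ECs or HCs, where the widest was 0.57 on the log2 scale in HC cluster 1 of DKO. In the other types 1 did, −1.03 in NK cells of TAZKO (−2.12 to −0.01), from 13 UMIs against 25. Unlike Lrat, Pnpla2 had its highest levels outside these types. Neutrophils held 99.2 CPM in WT, 111 in YAPKO, 133 in TAZKO and 116 in DKO, and KCs 67.8, 91.0, 69.8 and 97.7 CPM.

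**Figure D1:**
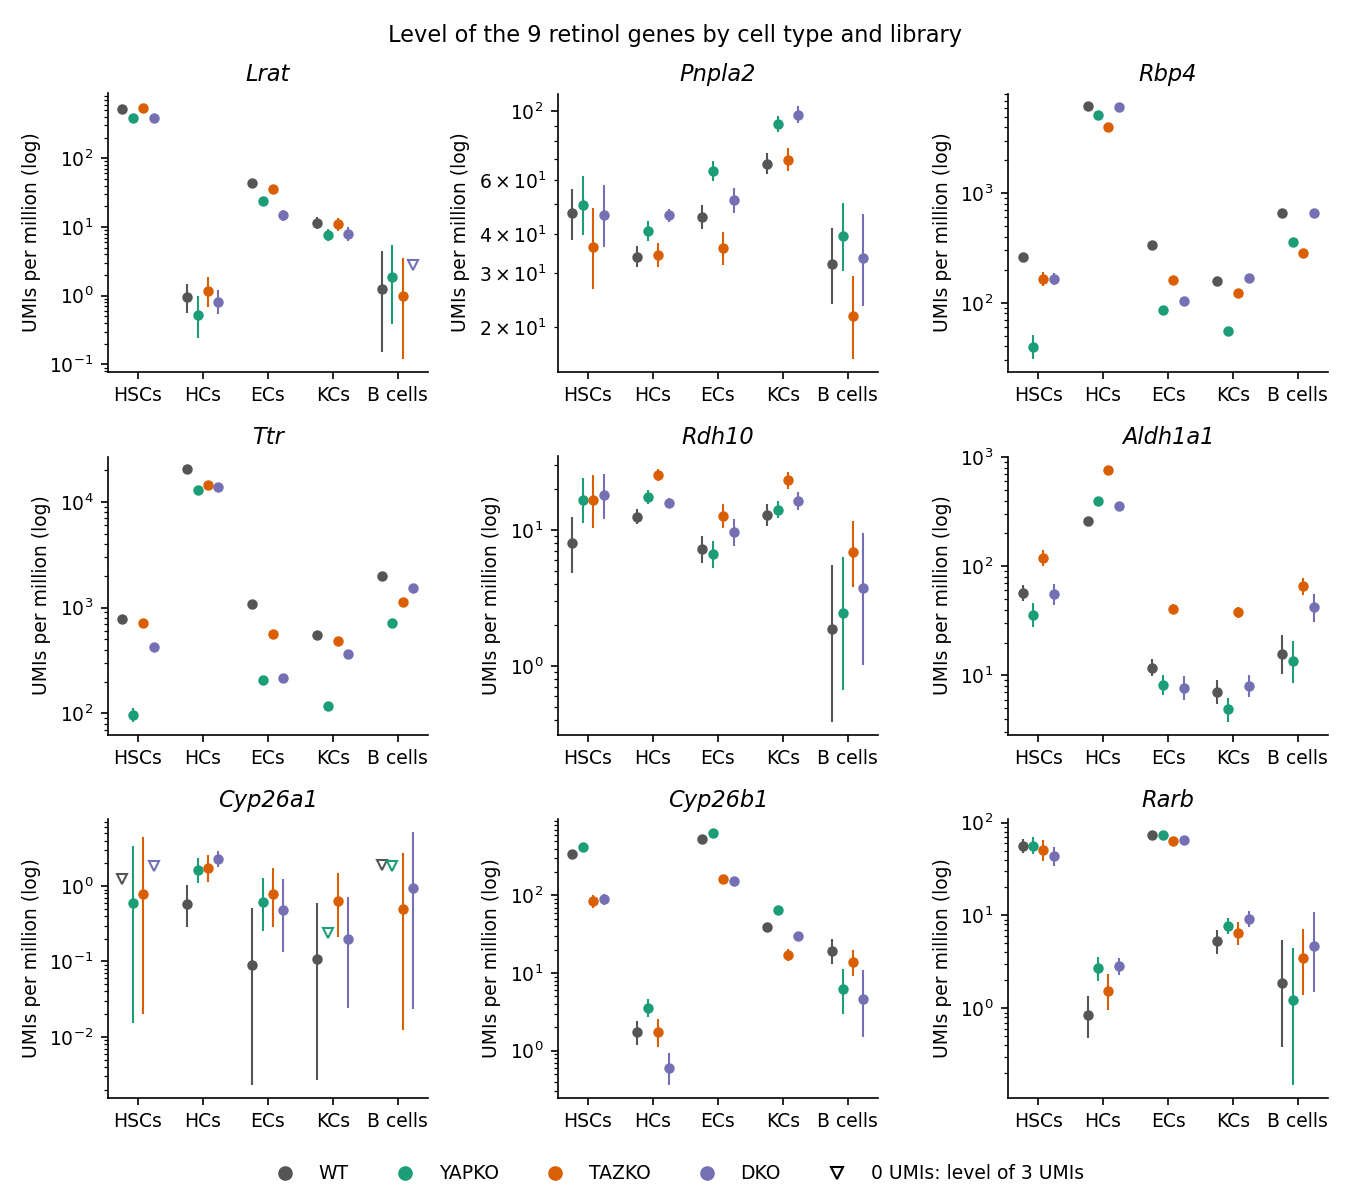
Levels of the 9 genes in CPM (log axis) in HSCs, HCs, ECs, KCs and B cells, with points for single libraries, bars for exact 95% counting intervals and open triangles at the level of 3 UMIs where none was counted. Cyp26b1 in ECs stands at 531 in WT against 164 in TAZKO and 153 in DKO, while Lrat in HSCs stays between 386 and 530.

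Rbp4 encodes the plasma carrier of retinol, which HCs secrete. HC cluster 1 held 8153 CPM in WT, 7044 in YAPKO, 3551 in TAZKO and 7062 in DKO, and cluster 3 held 5402, 4835, 3868 and 5574 CPM. TAZKO was the lowest library in both clusters. Its log2 ratio to WT was −1.20 in cluster 1 (−1.23 to −1.17), a 2.30-fold lower level, and −0.48 in cluster 3. The sum of HCs stood at 6185, 5208, 3990 and 6127 CPM, with WT and DKO overlapping and every other pair apart.

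Ttr encodes transthyretin, the partner of RBP4 in plasma. HC cluster 1 held 25821 CPM in WT, 14054 in YAPKO, 14756 in TAZKO and 14762 in DKO, and cluster 3 held 18232, 12822, 14788 and 13406 CPM. WT was highest in both clusters and apart from each knock-out, and TAZKO and DKO overlapped in cluster 1. The log2 ratios were −0.88, −0.81 and −0.81 in cluster 1 and −0.51, −0.30 and −0.44 in cluster 3, so none reached 2-fold. The sum of HCs stood at 20287, 13040, 14348 and 13931 CPM. Against the median of all genes in HCs, which is given below, Ttr lay at −1.06, −1.15 and −1.01.

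Both carriers were also counted outside HCs. Ttr stood at 1092 CPM in ECs of WT, 207 in YAPKO, 561 in TAZKO and 215 in DKO, and in HSCs at 784, 97.3, 716 and 422 CPM. Rbp4 stood at 336, 86.0, 160 and 103 CPM in ECs, and at 259, 39.6, 165 and 165 CPM in HSCs. B cells held more of each than ECs in every library, with 2004, 712, 1120 and 1527 CPM of Ttr and 659, 362, 284 and 662 CPM of Rbp4. Albumin mRNA was found in the same cells, at 1322, 368, 2355 and 512 CPM in ECs. The ratio of Ttr to Alb in the other cell types, relative to HCs of the library, ranged from 1.44 to 1.92 in WT, 1.42 to 2.05 in YAPKO, 0.767 to 1.28 in TAZKO and 1.01 to 1.62 in DKO. For Rbp4 it ranged from 0.955 to 2.17, 1.44 to 2.49, 0.768 to 1.11 and 1.10 to 1.59. Outside HCs, then, both genes stayed within 3-fold of the ratio to Alb in HCs of the library, in every cell type with at least 50 cells. In HSCs of YAPKO, Rbp4 was 6.53-fold and Ttr 8.06-fold lower than in WT. With limits of 500 to 6000 UMIs per cell, both calls were lost, at log2 ratios of 0.17 and −0.36. All 10 HC markers together were lower there as well, at 555 CPM against 2576 in WT, with Alb the most abundant.

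Rdh10 encodes a retinol dehydrogenase that makes retinal. In HC cluster 1 it stood at 5.49 CPM in WT, 5.99 in YAPKO, 20.5 in TAZKO and 8.38 in DKO, and in cluster 3 at 15.7 CPM in WT, 26.9 in TAZKO and 20.3 in DKO, with 284 UMIs and an interval of 17.7 to 22.5 CPM in YAPKO. TAZKO lay above the other libraries in cluster 1, 3.74-fold above WT (log2 1.90, 1.26 to 2.58), but under 2-fold against the median of all genes there (1.11). In cluster 3 its log2 ratio was 0.77 (0.44 to 1.10). The sum of HCs held 12.6, 17.6, 25.4 and 15.8 CPM, and TAZKO was 2.01-fold above WT, a difference of 0.36 on the log2 scale against the median of all genes. HSCs held 19 UMIs in WT, 28 in YAPKO, 21 in TAZKO and 29 in DKO, with intervals of 4.82 to 12.5, 11.2 to 24.3, 10.3 to 25.4 and 12.1 to 26.0 CPM. Each knock-out passed 2-fold, with log2 ratios of 1.07 (0.18 to 1.99), 1.05 (0.09 to 2.03) and 1.18 (0.29 to 2.09), but the 4 levels overlapped as neighbours. These calls rest on few molecules and were lost with HSCs chosen by their marker UMIs (0.51, 0.57 and 0.80). ECs held 7.28, 6.67, 12.7 and 9.66 CPM, none 2-fold from WT. Levels in KCs were close to those in HCs, at 13.0, 14.1, 23.2 and 16.4 CPM.

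Aldh1a1 encodes an enzyme that oxidises retinal to retinoic acid. In HC cluster 1 it stood at 171 CPM in WT, 353 in YAPKO, 744 in TAZKO and 272 in DKO, and in cluster 3 at 297, 411, 995 and 408 CPM. In both clusters TAZKO was highest and WT lowest, and YAPKO and DKO overlapped in cluster 3 alone. TAZKO was 4.34-fold above WT in cluster 1 (log2 2.12, 2.01 to 2.23) and 3.35-fold above it in cluster 3 (log2 1.74, 1.68 to 1.81). YAPKO passed 2-fold in cluster 1 (log2 1.04) and not in cluster 3 (0.47). For the sum of HCs, at 262, 401, 764 and 358 CPM, TAZKO was 2.92-fold above WT. Relative to the median of all genes in HCs this ratio was 0.89 on the log2 scale, under 2-fold, whereas against the medians of clusters 1 and 3 (1.11 and 0.54) Aldh1a1 in TAZKO stayed past 2-fold in both. The cells with a UMI made up 43.5%, 73.3%, 73.7% and 73.7% of HCs at median depths of 2144.5, 5959, 1850 and 6141 UMIs, and after thinning to 1000 UMIs 396 of 2194 in WT, then 29.5%, 51.2% and 25.1%. In B cells the thinned shares were 1.82%, 0.915%, 5.68% and 2.03%.

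Outside HCs, Aldh1a1 stood at 11.7 CPM in ECs of WT, 8.18 in YAPKO, 40.7 in TAZKO and 7.70 in DKO. TAZKO was 3.47-fold above WT there (log2 1.79), and B cells of TAZKO were the highest B cells too, at 65.4 CPM against 15.7 in WT. Relative to Alb, Aldh1a1 in ECs was 1.37, 2.21, 1.05 and 1.41 times its ratio in HCs. HSCs had a higher ratio. Their Aldh1a1 stood at 57.3, 36.0, 120 and 55.5 CPM, and its ratio to Alb was 9.04, 17.1, 4.02 and 7.65 times that in HCs. TAZKO lay above the other libraries, 2.09-fold above WT (log2 1.06, 0.72 to 1.41), and that log2 ratio was 0.19 with cells of over 1% UMIs from other main types left out.

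Cyp26a1 encodes an enzyme that clears retinoic acid, and it was the scarcest member. In HC cluster 3 it had 5 UMIs in WT, 28 in YAPKO, 13 in TAZKO and 66 in DKO, which is 0.380, 1.97, 2.79 and 3.34 CPM. WT lay below the knock-outs, whose intervals overlapped each other. The log2 ratio to WT was 2.38 in YAPKO (0.98 to 4.11) and 3.14 in DKO (1.84 to 4.81), 5.19-fold and 8.79-fold, and TAZKO had too few UMIs to be tested (2.88, 1.30 to 4.72). Cluster 1 held 5, 0, 3 and 6 UMIs and did not share this. Its log2 ratio in DKO was −0.83 (−2.81 to 1.22), below the interval of cluster 3, and in TAZKO 0.03 (−2.66 to 2.39). For the sum of HCs the levels were 0.579, 1.64, 1.74 and 2.30 CPM, with all knock-outs past 2-fold (2.83-fold, 3.01-fold and 3.98-fold higher). The mean of single-cell CPM gave a log2 ratio of 0.63 for YAPKO, and centring on the median ratio gave 0.94 for TAZKO, both under 2-fold. ECs held 1, 7, 6 and 4 UMIs, and HSCs 0, 1, 1 and 0, under the limit for a comparison. Of 186 Cyp26a1 UMIs in kept cells, 73.7% lay in HCs, and 1.98% of HCs in YAPKO and 1.77% in DKO had one, against 0.410% in WT and 0.775% in TAZKO, at the depths given for Aldh1a1. After thinning to 1000 UMIs these shares were 0.330%, 0.266%, 0% and 0.265%, so that TAZKO and DKO were alike. Without thinning, B cells had 0% in WT and YAPKO, 0.172% in TAZKO and 0.289% in DKO.

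Cyp26b1 encodes a related enzyme with the same function. In ECs it stood at 531 CPM in WT, 640 in YAPKO, 164 in TAZKO and 153 in DKO, with intervals of 517 to 544, 625 to 655, 155 to 173 and 145 to 162. YAPKO lay above WT, and TAZKO and DKO overlapped far below both. The level was 3.24-fold lower in TAZKO (log2 −1.69, −1.78 to −1.61) and 3.47-fold lower in DKO (log2 −1.79, −1.88 to −1.70), and in YAPKO the ratio was 0.27 (0.22 to 0.32). Of all genes tested in ECs, 1.29% had a lower ratio in TAZKO and 1.75% in DKO. Cells with a UMI made up 61.3% of ECs in WT, 74.6% in YAPKO and 33.7% in DKO, and 566 of 1886 in TAZKO, at median depths of 5232.5, 7601, 3875 and 5675 UMIs. After thinning to 1000 UMIs the shares were 30.9%, 37.7%, 11.7% and 12.5%, in the same order. B cells with a UMI made up 1.37%, 0.686%, 1.89% and 1.16%. The EC markers themselves summed to 22588, 21086, 20674 and 21334 CPM in ECs. Single markers differed, with Clec4g at 4170, 3881, 2570 and 3461 CPM and Cdh5 at 715, 743, 970 and 859 CPM. Their relation to the level of Cyp26b1 was not tested.

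ECs were ordered along the lobule by pericentral against periportal genes, and each library was split into 3 groups of equal size. Cyp26b1 in WT stood at 502 CPM in the periportal group, 490 in the middle and 601 in the pericentral group, and YAPKO gave 577, 622 and 721 CPM. In TAZKO the groups stood at 87.0, 136 and 281 CPM, and in DKO at 126, 119 and 211 CPM. The pericentral group was highest in all 4 libraries, and each group of TAZKO and DKO lay below every group of WT and YAPKO. Rarb was higher in pericentral than in periportal ECs in all 4, going from 41.4 to 110 CPM in WT, 44.2 to 114 in YAPKO, 38.5 to 97.1 in TAZKO and 39.4 to 95.8 in DKO. The groups are ranges of a score and not cell types.

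**Figure D2:**
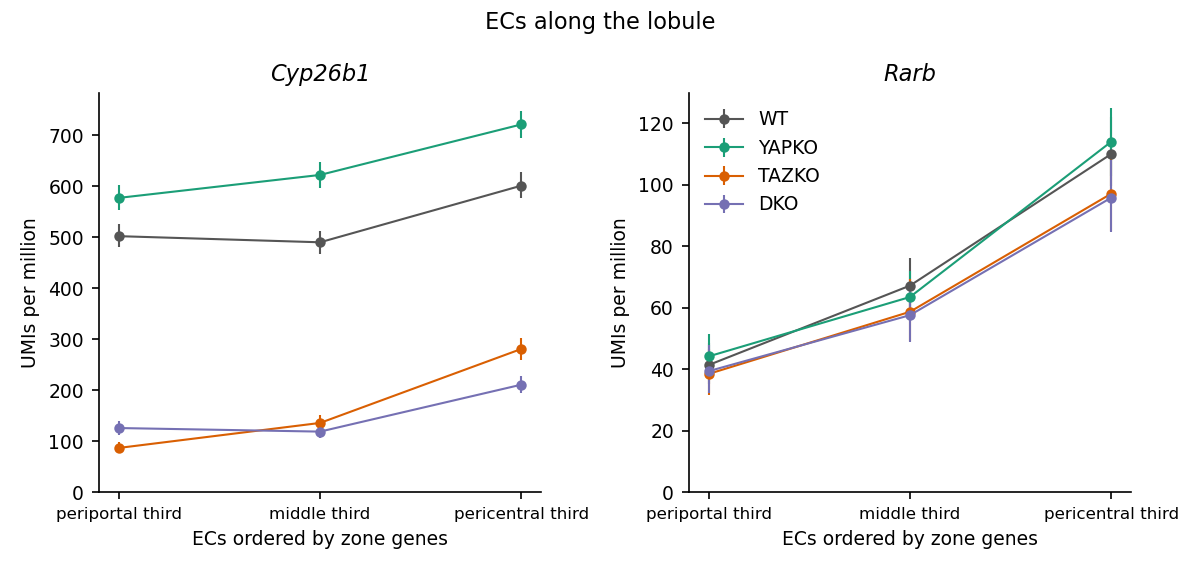
Cyp26b1 and Rarb in CPM in the periportal, middle and pericentral group of ECs, with points for single libraries and bars for exact 95% counting intervals. Cyp26b1 in TAZKO goes from 87.0 to 281, below every group of WT, while Rarb increases alike in all 4 libraries.

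HSCs also held less Cyp26b1 in TAZKO and DKO, at 343 CPM in WT, 423 in YAPKO, 84.7 in TAZKO and 90.5 in DKO. TAZKO was 4.05-fold lower than WT (log2 −2.02, −2.32 to −1.72) and DKO 3.79-fold lower (log2 −1.92, −2.19 to −1.67), and these 2 overlapped. EC markers were abundant in these cells. All 10 had UMIs in HSCs of each library, with sums of 14173 CPM in WT, 14780 in YAPKO, 9617 in TAZKO and 10686 in DKO, which is 62.7%, 70.1%, 46.5% and 50.1% of their level in ECs. Clec4g led in WT and YAPKO, and Ptprb in TAZKO and DKO. Relative to the EC marker UMIs, Cyp26b1 in HSCs reached 2.42%, 2.86%, 0.881% and 0.847%, and in ECs 2.35%, 3.03%, 0.793% and 0.718%. Cyp26b1 thus stood in nearly the same ratio to EC markers in HSCs as in ECs of the same library.

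HSCs were then split by their share of EC marker UMIs, in ranges chosen after the data were seen. HSCs with under 0.3% numbered 21 in WT, 4 in YAPKO, 21 in TAZKO and 16 in DKO. Cyp26b1 had 1, 0, 1 and 0 UMIs in them, while Lrat stood at 858, 495, 375 and 501 CPM. Over all 4 libraries these 62 cells held 2 Cyp26b1 UMIs, 3.74 CPM (0.453 to 13.5), beside 588 CPM of Lrat (524 to 656). In HSCs with over 2% EC marker UMIs, Cyp26b1 stood at 550 CPM in WT, 637 in YAPKO, 88.9 in TAZKO and 181 in DKO, and Lrat at 276, 191, 311 and 223 CPM. Between these ranges, Cyp26b1 stood at 179, 377, 75.7 and 45.1 CPM with 0.3% to 1% and at 358, 381, 112 and 137 CPM with 1% to 2% EC marker UMIs. These middle ranges overlapped in YAPKO and TAZKO, and in TAZKO the range over 2% (24.2 to 228) overlapped both. In DKO the range over 2% (96.6 to 310) overlapped that of 1% to 2% (112 to 165). The Cyp26b1 level thus increased from each range to the next in WT, YAPKO and DKO, although some neighbours overlapped. In TAZKO it was lower over 2% than with 1% to 2%, from 4 UMIs in 8 cells. In the lowest range the UMIs were too few to compare libraries. The share of HSCs among the top 8% of doublet scores was 10.7% in WT, 9.30% in YAPKO, 9.46% in TAZKO and 25.6% in DKO.

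**Figure D3:**
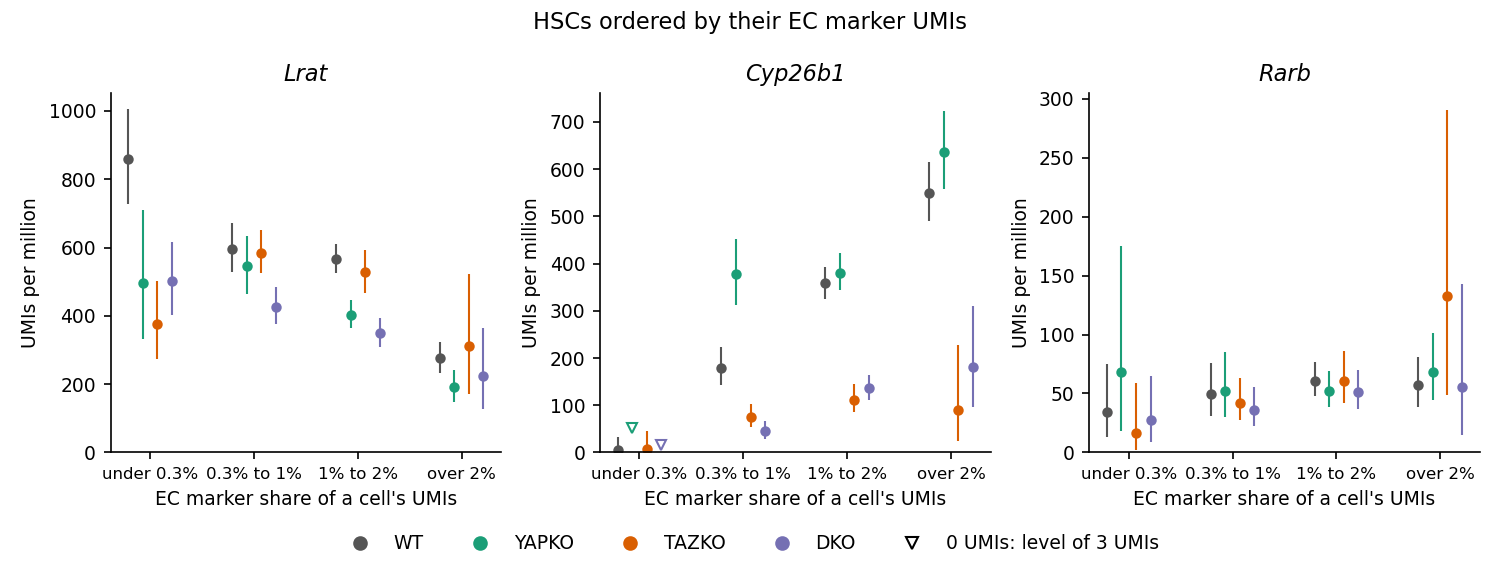
Lrat, Cyp26b1 and Rarb in CPM in HSCs grouped by the share of EC marker UMIs in the cell, with points for single libraries, bars for exact 95% counting intervals and open triangles at the level of 3 UMIs where none was counted. From under 0.3% to over 2%, Cyp26b1 goes from 0 or 1 UMI in a library to between 88.9 and 637 CPM, and Lrat from between 375 and 858 to between 191 and 311.

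HCs held little Cyp26b1. In cluster 3 it stood at 1.75 CPM in WT, 3.87 in YAPKO, 4.08 in TAZKO and 0.961 in DKO, with YAPKO and TAZKO above WT and past 2-fold (log2 1.15, 0.42 to 1.92, and 1.23, 0.27 to 2.17). The sum of HCs gave 1.74, 3.57, 1.74 and 0.599 CPM, where YAPKO passed 2-fold upward (1.04) and DKO downward (−1.53). The call in YAPKO was kept in 4 of 10 alternative settings, the lowest value being 0.53, and that in DKO in 10 of 10, although cluster 3 alone gave −0.86. Against the median of all genes in cluster 3 of DKO (0.43), that ratio also came past 2-fold lower. EC markers in HCs summed to 85.3, 91.7, 282 and 90.5 CPM, and their part in these values was not tested. Among types with at least 50 cells, ECs were highest for Cyp26b1 and HSCs next in every library. ECs and HSCs lay apart in each, while HSCs overlapped dividing cells in TAZKO and neutrophils in DKO.

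Rarb encodes a receptor of retinoic acid. In ECs it stood at 72.6 CPM in WT, 73.6 in YAPKO, 63.4 in TAZKO and 65.1 in DKO, and in HSCs at 56.0, 56.4, 50.7 and 43.7 CPM. All neighbours in these orders overlapped, and no ratio reached 2-fold in either type, so Rarb did not share the difference of Cyp26b1 in TAZKO and DKO. ECs and HSCs overlapped in YAPKO and TAZKO and lay apart in WT and DKO. Pooled over the libraries, HSCs with under 0.3% EC marker UMIs held 17 Rarb UMIs, 31.8 CPM (18.5 to 50.9). In HC cluster 3 Rarb stood at 0.987 CPM in WT, 3.03 in YAPKO, 2.15 in TAZKO and 3.59 in DKO. The ratios to WT were 1.62 in YAPKO (0.69 to 2.64), 1.12 in TAZKO (−0.23 to 2.43) and 1.86 in DKO (1.00 to 2.84) on the log2 scale, from 13, 43, 10 and 71 UMIs. Cluster 1 held 3, 3, 4 and 19 UMIs, and DKO passed 2-fold there (1.57, −0.20 to 3.97). The sum of HCs stood at 0.842, 2.69, 1.53 and 2.87 CPM. Relative to EC marker UMIs, Rarb in HCs was at 0.988%, 2.94%, 0.544% and 3.17%, above the 0.322%, 0.349%, 0.307% and 0.305% in ECs. HCs with a Rarb UMI made up 0.684%, 3.62%, 0.711% and 2.66%, beside 0.683%, 0.458%, 1.20% and 1.45% of B cells at the depths given above. After thinning to 1000 UMIs the HC shares were 0.0456%, 0.248%, 0.0662% and 0.199%, and those of B cells 0%, 0%, 0.344% and 0.290%, with 6 HCs or fewer and 2 B cells or fewer in each library.

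Members were also read along scores of position and state within a type. Along the HC lobule axis, Aldh1a1 stood at 238, 209 and 443 CPM from the periportal to the pericentral group of WT, 313, 363 and 742 in YAPKO, 638, 844 and 1093 in TAZKO and 302, 289 and 551 in DKO. The pericentral group was highest in all 4 libraries. Groups were ranked within a library and are not the same positions across libraries. The pericentral genes summed to 49.0, 168 and 2986 CPM in the groups of WT and to 454, 2780 and 5911 CPM in those of TAZKO, so they were higher in TAZKO together with Aldh1a1. Median depth in those groups of WT was 7343.5, 2063 and 1848 UMIs. Ordered by quiescent against activated genes, HSCs of WT held 245, 433 and 784 CPM of Lrat from the lowest to the highest score. YAPKO gave 213, 431 and 501 CPM, TAZKO 316, 578 and 706, and DKO 368, 345 and 455. Lrat was highest in the group with most quiescent gene UMIs in every library, and in DKO the lowest and highest group overlapped. The activated genes also increased from the lowest to the highest group in WT (210 to 431 CPM) and TAZKO (427 to 661 CPM), so that there the groups order the quiescent genes alone. Every quiescent gene is also an HSC marker, and EC markers in HSCs stood at 46.5% to 70.1% of their level in ECs. The part of EC RNA in these groups was not tested. Ordered by pericentral against periportal genes, HSCs gave no common direction for Lrat, with 630, 424 and 515 CPM in WT, 529, 403 and 212 in YAPKO, 550, 450 and 578 in TAZKO and 391, 400 and 372 in DKO. In YAPKO the pericentral genes did not rise along this order (262, 301 and 221 CPM), while the periportal genes fell (2096, 932 and 312 CPM). The groups of YAPKO thus order the periportal genes alone.

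The members' counts are read against all genes tested in the same cells. In HSCs, 3 of 8 tested members passed 2-fold in YAPKO beside 7.08% of all genes, with Rdh10 higher and Rbp4 and Ttr lower. TAZKO had 3 of 8 beside 12.1%, with Aldh1a1 and Rdh10 higher and Cyp26b1 lower, and DKO had 2 of 8 beside 8.51%, with Rdh10 higher and Cyp26b1 lower. In ECs, 2 of 8 tested members passed 2-fold in YAPKO beside 7.61%, both lower (Rbp4 and Ttr). TAZKO had 3 of 8 beside 10.1%, with Aldh1a1 higher and Rbp4 and Cyp26b1 lower, and DKO had 4 of 8 beside 9.18%, with Lrat, Rbp4, Ttr and Cyp26b1 lower. With at most 20% mitochondrial UMIs, Rbp4 (−0.23) and Ttr (−0.92) in ECs of DKO lost their calls, which left 2. Several of these are the HC carriers. In YAPKO and DKO Alb was also lower than in WT in both types, whereas in TAZKO it was higher, at 2355 CPM against 1322 in ECs and 1808 against 975 in HSCs. The call of Rbp4 in ECs of TAZKO (−1.07) was kept in 6 of 10 alternative settings.

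In HC cluster 3, 3 of 8 tested members passed 2-fold in YAPKO beside 9.93% of all genes (Cyp26a1, Cyp26b1 and Rarb), 3 of 7 in TAZKO beside 26.2% (Cyp26b1, Aldh1a1 and Rarb) and 2 of 9 in DKO beside 18.8% (Cyp26a1 and Rarb), all higher. In cluster 1, 1 of 5 passed in YAPKO beside 26.0% (Aldh1a1), 3 of 5 in TAZKO beside 55.5% (Aldh1a1 and Rdh10 higher, Rbp4 lower) and 1 of 6 in DKO beside 36.9% (Rarb). For the sum of HCs, 3 of 9 passed in YAPKO beside 11.2%, 3 of 9 in TAZKO beside 29.1% and 3 of 9 in DKO beside 19.1%. The median log2 ratio of all genes lay above 0 in HCs, at 0.42 in YAPKO, 0.65 in TAZKO and 0.47 in DKO. In cluster 1 it was 0.55, 1.11 and 0.71, and in cluster 3 it was 0.32, 0.54 and 0.43. Relative to these cluster medians, several calls were lost: Cyp26b1 in cluster 3 of YAPKO and TAZKO, Rarb in cluster 3 of TAZKO and cluster 1 of DKO, and Aldh1a1 of YAPKO and Rdh10 of TAZKO in cluster 1. Ttr in cluster 1 of each knock-out, Rbp4 in cluster 3 of TAZKO and Cyp26b1 in cluster 3 of DKO came past 2-fold lower. In HSCs and ECs of TAZKO it was 0.18 and 0.17, and at most 0.05 in the other libraries. Relative to the medians of the type, Cyp26a1 in the sum of HCs was at 1.08, 0.94 and 1.53, Rarb at 1.26, 0.21 and 1.30, Lrat in YAPKO at −1.27 and Rbp4 in TAZKO at −1.28. The Lrat value rests on 9 UMIs in YAPKO against 18 in WT, and its uncentred ratio of −0.85 had an interval of −2.18 to 0.38. In ECs of TAZKO, Ttr came to −1.13, past 2-fold. In HSCs of TAZKO, Aldh1a1 and Rdh10 both came to 0.88, under 2-fold, while Cyp26b1 was at −2.20.

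**Figure D4:**
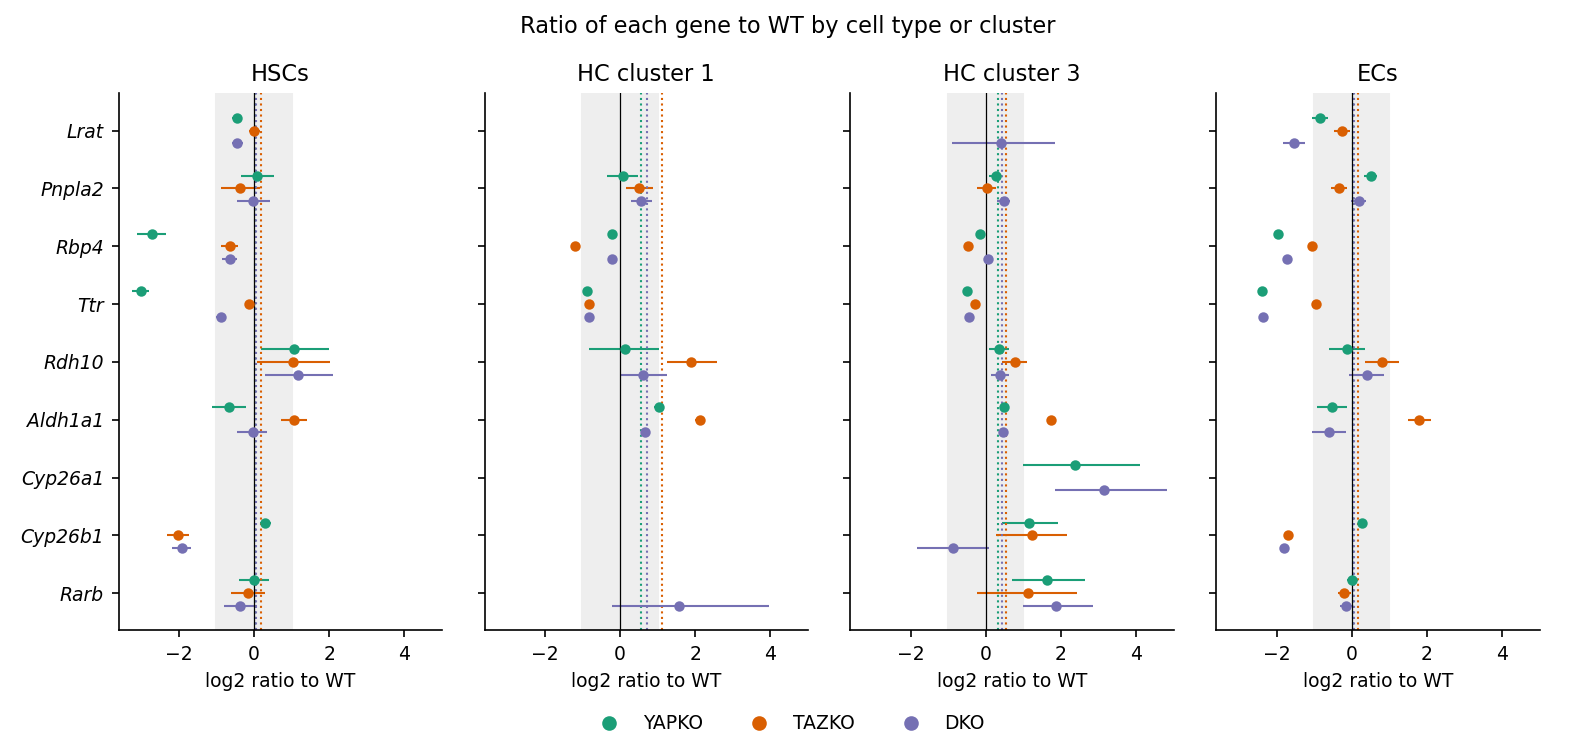
Log2 ratio to WT of the 9 genes in HSCs, HC clusters 1 and 3, and ECs of each knock-out, with exact 95% counting intervals for the genes tested, shading for less than 2-fold and dotted lines at the median of all genes. In ECs, Cyp26b1 lies at 0.27 in YAPKO, −1.69 in TAZKO and −1.79 in DKO.

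A list of 56 other retinoid genes, grouped by 10 roles, sets the members beside the rest of the pathway. In HSCs, 0 of its 29 tested genes were at least 2-fold higher and 6 were lower in YAPKO, with a list median of −0.30 on the log2 scale against 0.03 for all genes. TAZKO had 3 higher and 1 lower of 31 (median 0.18 against 0.18), and DKO 0 higher and 1 lower of 31 (median −0.00 against 0.05). Those called were 20.7%, 12.9% and 3.23% of the list genes in YAPKO, TAZKO and DKO, beside 7.08%, 12.1% and 8.51% of all genes. HC markers in HSCs summed to 2576 CPM in WT, 555 in YAPKO, 3437 in TAZKO and 1554 in DKO, and their part in the list was not tested. Aldh1a3, which oxidises retinal, was the gene lower in both YAPKO and DKO, at 6.01 and 6.86 CPM against 19.0 in WT. The retinal reductase Dhrs3 stood at 195, 183, 147 and 193 CPM, none of them 2-fold from WT. Rarres2, a gene known to respond to retinoic acid, stood at 601, 421, 354 and 442 CPM. Lpl, a lipase, fell in YAPKO from 105 to 40.8 CPM. Of the other abundant list genes in HSCs (Fabp5, G0s2, Tgm2, Plin2, Rxra and Rarg), each stayed within 2-fold of WT in all knock-outs.

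In ECs, 0 list genes were higher and 13 lower of 39 in YAPKO (median −0.22 against 0.04), 6 higher and 1 lower of 39 in TAZKO (0.30 against 0.17), and 0 higher and 8 lower of 38 in DKO (−0.16 against 0.05). Of all genes tested in ECs, 7.61%, 10.1% and 9.18% passed 2-fold. HC markers in ECs moved in the same directions, from 3585 CPM in WT to 926 in YAPKO, 4183 in TAZKO and 1034 in DKO, and their part in the list was not tested. In HC cluster 3 the list had 4 higher and 1 lower of 42 in YAPKO (0.29 against 0.32), 8 higher and 2 lower of 43 in TAZKO (0.33 against 0.54), and 6 higher and 3 lower of 43 in DKO (0.23 against 0.43). These calls were 11.9%, 23.3% and 20.9% of the list genes, near the 9.93%, 26.2% and 18.8% of all genes. In cluster 1 it had 6 higher and 4 lower of 40 in YAPKO, 16 higher and 0 lower of 40 in TAZKO, and 7 higher and 6 lower of 40 in DKO. Among all genes tested in cluster 1, 26.0%, 55.5% and 36.9% passed 2-fold, each above the called share of the list. The list medians there were 0.15, 0.75 and 0.10, each below that of all genes. For the sum of HCs the list had 6 higher and 1 lower of 44, 8 and 0 of 43, and 6 and 3 of 44, with medians of 0.37, 0.40 and 0.17. The called shares were 15.9%, 18.6% and 20.5%, beside 11.2%, 29.1% and 19.1% of all genes.

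Named list genes were read in the sum of HCs alone, not by cluster. Lpl rose in each knock-out, from 7.32 CPM in WT to 25.5, 53.7 and 31.5. Rdh16, a retinol dehydrogenase, rose from 7.26 CPM to 54.1 in TAZKO and 33.0 in DKO, and stood at 12.5 in YAPKO. The receptor gene Rarg rose from 0.474 CPM to 1.74 in TAZKO and 1.07 in DKO. Against the median of all genes in HCs of DKO (0.47), the rise in DKO was under 2-fold. G0s2, which encodes an inhibitor of PNPLA2, fell from 112 CPM to 29.0 in YAPKO and 22.7 in DKO, and stood at 111 in TAZKO. The fatty acid carrier Fabp5 fell in DKO, to 108 CPM from 440. Among the other abundant list genes in HCs (Aox3, Rarres2, Rdh7, Adh1, Ces3a, Plin2, Adh5, Aldh8a1 and Aldh1a7), none differed 2-fold from WT in any knock-out, and Aldh1a7, the close relative of Aldh1a1, stood at 98.1, 129, 130 and 111 CPM.

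The genes most like each member were found by Pearson correlation of log2(CPM + 10) over 49 sums of cell type and library, which share libraries and depth and are not independent. Lrat was closest to Colec11 (0.984), Abcc9 (0.980) and Col14a1 (0.980), all highest in HSCs. Rbp4 was closest to Apoc3 (0.988), Serpina1b (0.987) and Serpina1a (0.986), and Ttr to Serpina1e (0.976), Fabp1 (0.974) and Serpina1c (0.974). These 6 are highest in HCs. Cyp26b1 was closest to Gm35533 (0.956), Cyp4b1 (0.929) and Lrrc32 (0.923), and Rarb to Apbb2 (0.987), Bace2 (0.978) and Tjp1 (0.976), all highest in ECs. Aldh1a1 was closest to Hspb8 (0.948), Errfi1 (0.936) and Ndrg2 (0.932), highest in HCs. Rdh10 had lower values with Ogdh (0.815), Acly (0.745) and Fam13a (0.741), as did Pnpla2 with Gabarap (0.880), Pla2g7 (0.819) and C5ar1 (0.804), the latter highest in neutrophils. Cyp26a1, with 185 UMIs in these sums, was closest to Gm29571 (0.728), Chst13 (0.700) and Gm13522 (0.689).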

How the data were processed

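Single-cell libraries (Chromium 3′ v3.1, mm10) of liver cells from WT, YAPKO, TAZKO and DKO mice, 1 each, were used as deposited: raw counts of UMIs per gene and barcode. The labels name Cell Ranger 6.0.1 and the matrix headers 4.0.0. Barcodes with 500 to 6000 genes and at most 10% mitochondrial UMIs were kept, and doublets were not removed. The study states the limits of 500 and 6000 in transcripts, so they may be meant as UMIs; reading them as genes was a choice. Cells were log-normalised and clustered in Seurat 5.3.0 (R 4.3.3) with 2000 variable genes without the members and retinoid list, 20 components, Harmony correction and resolution 0.4. The Harmony step by library was written anew and was not the published package. Scanpy 1.11.5 gave doublet scores, and sums and intervals used Python 3.11.15, numpy 2.4.6, scipy 1.17.1 and pandas 2.3.3. UMIs were summed by type and library. With 1 library per genotype no test was run: intervals are Poisson for sums, conditional binomial for ratios and Clopper-Pearson for shares, and a 0 stands at 3 UMIs in ratios. Named genes are the members, list genes past 2-fold the same way in at least 2 knock-outs or among the 10 highest in HSCs or HCs, and the 3 genes most correlated with each member, and 1 list gene is not reported here. Alternatives varied limits, clustering, doublets, choice of cells, weighting and scaling. Members and lists were chosen with earlier results of these data known.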

Additional observations from a re-analysis of the deposited data

Results flagged for a closer look

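Lrat was also counted in barcodes that the limits left out, which the comparisons do not use. Of all Lrat UMIs of a library, 12.1% lay in such barcodes in WT, 57.4% in YAPKO, 7.26% in TAZKO and 31.1% in DKO. Most of them lay in barcodes with over 6000 genes, which held 10.9%, 57.2%, 4.84% and 30.9%. There were 133, 418, 25 and 166 such barcodes. Their Lrat level was 31.0, 72.9, 57.3 and 61.9 CPM, with HSC markers at 1052, 2355, 1528 and 2259 CPM, HC markers at 68569, 39502, 53621 and 28579 CPM, and EC markers at 1825, 4483, 2792 and 5371 CPM. These levels of Lrat lie below those in HSCs of the same library.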

How the results depend on the processing

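No paired analysis was possible because each genotype had 1 library, labelled replicate 1, so nothing could be tested against variation between mice. Of 731 ratios of members under the alternative settings, 585 moved by less than their counting interval, 145 moved by more and 1 reversed. A reversal was counted only for ratios past 2-fold as reported, so a change of sign in the others is not shown. Among 177 under settings added after seeing the data, the numbers were 116, 61 and 0. Cyp26b1 in ECs passed 2-fold in 10 of 10 alternative settings, at −1.87 to −1.64 in TAZKO and −1.90 to −1.77 in DKO, as did Lrat in ECs of DKO (−1.59 to −1.36). Of 93 member levels with at least 20 UMIs, 66 to 93 stayed within 1.5-fold of the reported level under each setting. With at most 20% mitochondrial UMIs, Rbp4 and Ttr in ECs of DKO came to −0.23 and −0.92.

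Limits of 500 to 6000 UMIs in place of genes, which may be the study's own filter, gave 1 member past 2-fold in HSCs of YAPKO, 5 in HSCs of TAZKO, 5 in HCs of TAZKO and 1 in HCs of DKO, and reversed Rbp4 in HSCs of YAPKO (0.17). Without Harmony, HSCs had 1 member in TAZKO and 1 in DKO. Centring on the median ratio left 1 in HSCs of TAZKO. In HSCs of DKO the number was 1 with cells chosen by marker UMIs, 4 without cells of over 1% UMIs from other main types, and ECs of DKO had 2 members past 2-fold at 20% mitochondrial UMIs. Of the settings added after seeing the data, HSCs with under 0.3% EC marker UMIs and cells chosen by marker UMIs with no upper limit of genes each gave 1 in HSCs of DKO, and HC cluster 1 alone gave 1 in YAPKO and 1 in DKO. The cause was not tested. Settings that left a member with under 20 UMIs gave no ratio.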
